A study of Mus musculus with 6 samples.

Results

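The genes described here are 7 markers of the dental follicle, the sac of connective tissue around a growing tooth, and of the periodontal ligament that forms from it. They are Pthlh, Pth1r, Postn, Spon1, Tnmd, Scx and Mkx. They were chosen by symbol, all 7 were found among the 25703 genes of the count table, and all 7 passed the filter on low counts. RNA of the proximal incisor was sequenced in 3 libraries of genotype Gli1-CreER;Arid1a fl/fl (called Arid1a cKO here) and 3 libraries of genotype Arid1a fl/fl (control). Mice were on a C57BL/6 background and 6 weeks old. Both groups carry floxed Arid1a alleles, and the labels give tamoxifen for both, at 1.5 mg per 10 g of body weight on 3 days when the mice were 1 month old. Arid1a codes for a subunit of SWI/SNF, a complex that remodels chromatin. Gli1-CreER is a tamoxifen-inducible recombinase that acts in cells expressing Gli1, among them mesenchymal stem cells of the incisor, so that other cells keep Arid1a. The comparison asks how these marker genes differ when Arid1a is lost from that lineage. The sources used here do not say whether follicle and ligament stayed on the dissected tissue.

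Parathyroid hormone-related protein (PTHrP, from Pthlh) is a secreted peptide that acts on nearby cells through the G protein-coupled receptor encoded by Pth1r, which raises cyclic AMP. The pair is known for its part in tooth eruption and in the fate of dental follicle cells. Postn encodes periostin, a secreted protein of the collagenous matrix of the periodontal ligament, and Spon1 encodes F-spondin, another secreted matrix protein. Tnmd encodes tenomodulin, a membrane glycoprotein of mature tendon and ligament cells. Scx and Mkx encode transcription factors of tendon and ligament, a basic helix-loop-helix and a homeobox protein. Dental epithelium also makes PTHrP, and periostin occurs in other connective tissues.

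Library totals lay between 29922013 and 37908478 counts in Arid1a cKO and between 27300932 and 32677240 in control. Levels are given as CPM, counts scaled to a common library size after TMM normalization, and differences as the log2 fold change of Arid1a cKO over control. Arid1a itself averaged 140.2 ± 4.57 CPM in Arid1a cKO and 231 ± 15.2 CPM in control (SD, n = 3 each). Dspp, a marker of odontoblasts, averaged 3918 ± 561 CPM in Arid1a cKO and 3238 ± 1716 CPM in control (SD, n = 3 each), as a check of the labelled tissue. A gene is called when its adjusted p is under 0.05 in edgeR's quasi-likelihood test with Benjamini-Hochberg adjustment over the 19613 genes tested. The labels do not say that each library came from its own animal, so a p-value here measures only how far these samples spread, and that spread may be technical. Libraries also differed within a group: summed skeletal muscle markers (10 genes) reached 47.1 CPM in control replicate 2 against 4.51 and 14.0 CPM in the other controls, and Xist was high in Arid1a cKO replicate 1 and control replicate 3 and low in the other 4 libraries.

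None of the 7 marker genes was called by edgeR, against 3.96% of all genes tested (1.5% higher and 2.46% lower in Arid1a cKO). Before adjustment, 5 of the 7 had a p under 0.05 by edgeR, as did 22% of all genes. DESeq2 called 2 of the 7, Pthlh and Postn, both higher in Arid1a cKO, against 9.87% of all genes called by that tool in either direction and 4.24% called higher. The values of the groups did not overlap in 4 of the 7 genes, against 29.1% of all genes. Of these 4, Pthlh, Spon1 and Tnmd were higher (13.8% of all genes) and Pth1r was lower (15.3% of all genes) in Arid1a cKO. The median log2 fold change of the 7 genes was 0.35, and that of all genes tested was 0.0043. Means of Pthlh, Postn, Spon1 and Tnmd were higher and those of Pth1r, Scx and Mkx lower in Arid1a cKO. In bulk tissue, fewer cells of a type and less RNA per cell cannot be told apart.

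Relative to their length, the marker genes spanned a wide range of levels. Levels per length are CPM per kb of annotated exon sequence. Postn stood first, with 50.7 ± 13.8 CPM per kb in Arid1a cKO and 34.3 ± 6.29 in control (SD, n = 3 each), above 95.1% of the 14732 protein-coding genes compared. Spon1 (22.2 ± 5.53 in Arid1a cKO and 12.5 ± 4.21 in control) came next by its mean in Arid1a cKO. Its range overlapped in both groups with that of Pthlh, which had 18.9 ± 1.42 CPM per kb in Arid1a cKO and 14.9 ± 1.22 in control, so these neighbours have no clear order. Pth1r followed with 13.5 ± 0.792 CPM per kb in Arid1a cKO and 15.8 ± 0.242 in control, a range that lay below that of Pthlh in Arid1a cKO and overlapped it in control. Mkx, with 11.4 ± 1.11 CPM per kb in Arid1a cKO and 11.7 ± 3.32 in control, lay just below Pth1r without overlap. The tendon genes Tnmd and Scx stood lowest. Tnmd had 3.88 ± 0.502 CPM per kb in Arid1a cKO and 2.56 ± 0.774 in control, above 34.7% of protein-coding genes. Scx had 0.607 ± 0.0913 CPM per kb in Arid1a cKO and 0.742 ± 0.203 in control, above 13.1% of them. From Mkx down, each gene was separate from its neighbour in both groups.

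**Figure D1:**
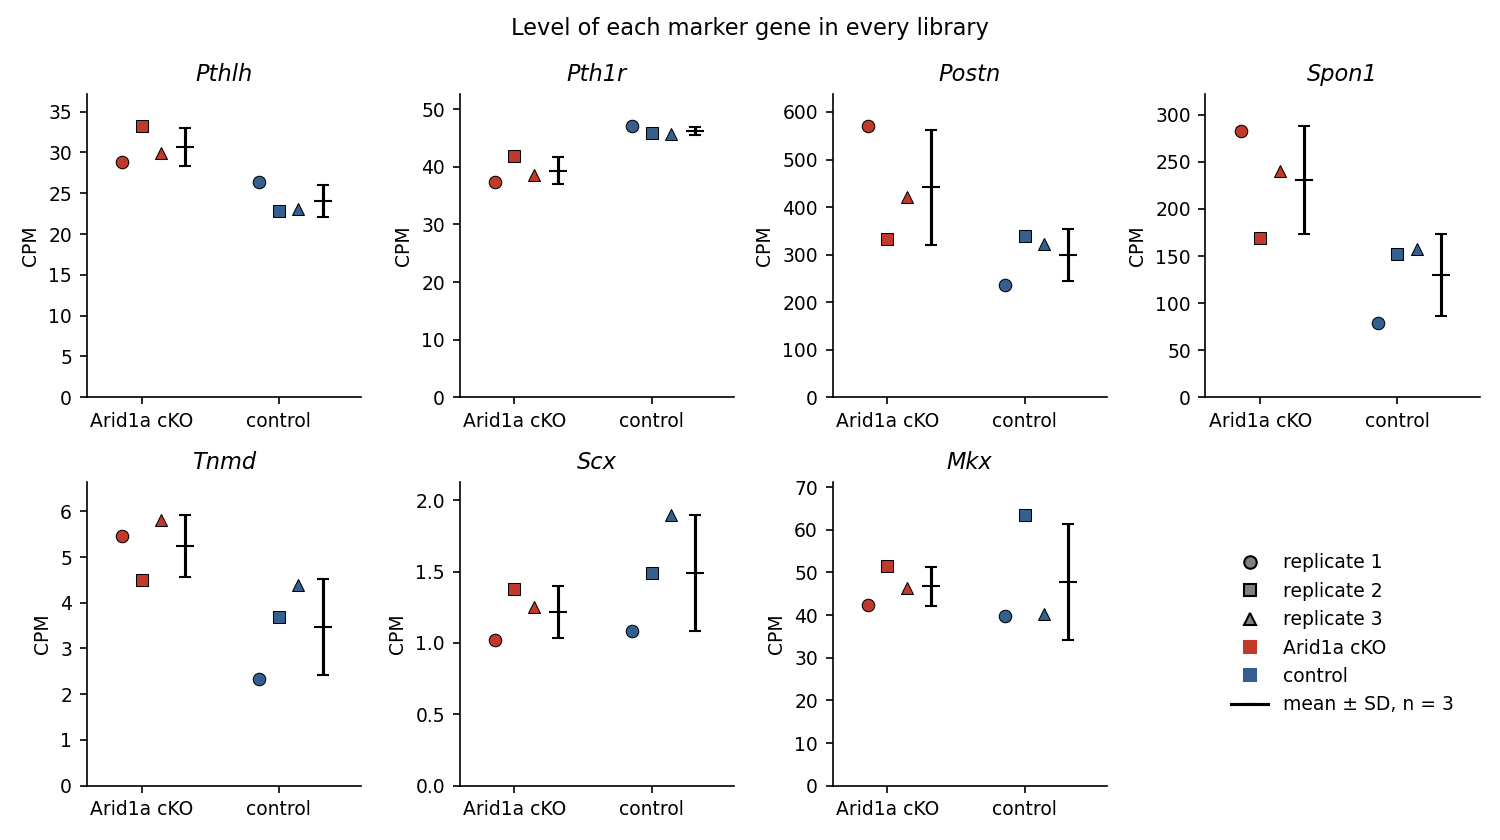
CPM of each of the 7 marker genes in every library (circle, square and triangle for replicates 1, 2 and 3), with the mean and SD of each group (n = 3); every vertical axis starts at 0. The groups are separate in Pthlh, Pth1r, Spon1 and Tnmd, and control replicate 1 is the lowest library in Postn, Spon1, Tnmd and Mkx.

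Promoter sequences were available for 4 of the marker genes from RefSeq (GRCm38.p6), as 7 windows of 300 bases from 250 before to 50 after an annotated start site: 3 for Pth1r, 2 for Postn and 1 each for Pthlh and Tnmd. Of several, the window nearest to the GENCODE start of the gene is shown. The windows of the ligand and receptor are shown because these genes differed in opposite directions, and those of Postn and Tnmd because their profiles over the libraries were alike. They are given 5′ to 3′ on the strand of the gene. Capitals mark matches to CANNTG (the E-box, the core bound by basic helix-loop-helix factors such as Scx), TGGGTGGTC (bound by Gli factors), TGACGTCA (the cyclic AMP response element) and TATAAA (the TATA box), searched on both strands.
Pthlh, chr6:147263964-147264263, minus strand: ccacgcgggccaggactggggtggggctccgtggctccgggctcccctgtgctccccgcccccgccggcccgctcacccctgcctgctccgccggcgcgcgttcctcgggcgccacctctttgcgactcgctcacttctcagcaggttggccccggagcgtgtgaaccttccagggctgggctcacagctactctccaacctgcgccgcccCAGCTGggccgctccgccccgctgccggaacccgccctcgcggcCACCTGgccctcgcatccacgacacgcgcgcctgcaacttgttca
Pth1r, chr9:110747096-110747395, minus strand: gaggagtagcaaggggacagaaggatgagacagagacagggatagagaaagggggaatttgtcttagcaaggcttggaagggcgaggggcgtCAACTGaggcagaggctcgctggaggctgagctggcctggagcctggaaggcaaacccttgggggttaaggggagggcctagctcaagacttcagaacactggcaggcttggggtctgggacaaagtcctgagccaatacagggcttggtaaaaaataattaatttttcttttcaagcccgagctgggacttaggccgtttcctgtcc
Postn, chr3:54360857-54361156, plus strand: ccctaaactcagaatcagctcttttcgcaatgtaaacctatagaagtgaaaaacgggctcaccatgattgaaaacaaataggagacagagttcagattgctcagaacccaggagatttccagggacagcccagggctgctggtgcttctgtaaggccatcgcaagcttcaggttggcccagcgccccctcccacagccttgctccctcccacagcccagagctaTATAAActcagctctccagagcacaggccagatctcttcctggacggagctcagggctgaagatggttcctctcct
Tnmd, chrX:133850758-133851057, plus strand: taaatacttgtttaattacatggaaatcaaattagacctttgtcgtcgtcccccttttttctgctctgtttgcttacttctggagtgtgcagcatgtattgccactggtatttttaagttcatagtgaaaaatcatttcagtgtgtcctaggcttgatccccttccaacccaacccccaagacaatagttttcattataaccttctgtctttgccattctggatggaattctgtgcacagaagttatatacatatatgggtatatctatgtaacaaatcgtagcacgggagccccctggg

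The Pthlh window, whose RefSeq start lies 170 bases inside the GENCODE start of the gene, held 2 E-box matches, at -39 and 5 from the start site. The Pth1r window shown held 1, at -158. Of the other 2 Pth1r windows, the one at chr9:110742561-110742860 held 1, at -4, and the one at chr9:110743637-110743936 held none. Of all 32851 promoter windows, 72.3% held such a match. The Postn window shown held the TATA letters 26 bases before its start site, while the other Postn window, at chr3:54359017-54359316, held no match to the 4 motifs. Of all windows, 13.6% held the TATA letters anywhere in the 300 bases. The Tnmd window held no match to the 4 motifs. None of the 7 windows held the Gli letters, found in 0.253% of all windows, or the cyclic AMP response element, found in 1.79%. The share of G and C was 74% in the Pthlh window, 54.3%, 68% and 69.3% in the 3 Pth1r windows, 53% and 40% in the 2 Postn windows and 40% in the Tnmd window, with the value of the window shown first. These matches describe letters in a window and do not show binding.

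Pthlh, the ligand (chromosome 6, 147252101 to 147264183, mm10, minus strand), had 28.8, 33.2 and 29.9 CPM in Arid1a cKO replicates 1 to 3, against 26.3, 22.8 and 23.0 CPM in control replicates 1 to 3. All 3 Arid1a cKO libraries lay above all 3 controls, the nearest being Arid1a cKO replicate 1 and control replicate 1. The means were 30.7 ± 2.30 CPM in Arid1a cKO and 24.1 ± 1.97 CPM in control (SD, n = 3 each), a 1.27-fold higher level that missed the threshold (log2 fold change 0.35, SE 0.0879, edgeR adjusted p = 0.0687). DESeq2 (adjusted p = 0.0217) and edgeR without TMM scaling (adjusted p = 0.0404) placed the gene past it. With skeletal muscle markers as a covariate, the log2 fold change was 0.27 (edgeR adjusted p = 0.143). With single libraries left out in turn, the edgeR adjusted p lay between 0.0836 and 0.165.

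Pth1r, the receptor (chromosome 9, 110722085 to 110747145, minus strand), differed in the other direction. Its level was 37.5, 41.9 and 38.7 CPM in Arid1a cKO replicates 1 to 3, against 47.1, 46.0 and 45.8 CPM in control replicates 1 to 3. Every Arid1a cKO library lay below every control, and the controls lay within 1.03-fold of each other. The means were 39.4 ± 2.32 CPM in Arid1a cKO and 46.3 ± 0.709 CPM in control (SD, n = 3 each), and the difference missed the threshold (log2 fold change -0.23, SE 0.064, edgeR adjusted p = 0.0849). With single libraries left out in turn, the edgeR adjusted p lay between 0.0783 and 0.213. Pth1r shares 95 exon bases with Myl3, a myosin light chain gene on the opposite strand, which held at most 5.55 counts in any library. The ratio of ligand to receptor within a library, taken per length, was 1.39, 1.43 and 1.40 in Arid1a cKO replicates 1 to 3 and 1.01, 0.896 and 0.909 in control replicates 1 to 3. The groups were separate in this ratio, with a difference of 0.59 on the log2 scale (two-sided exact permutation test, p = 0.1, which is the lowest value possible with 3 libraries a group, and 0.133 after Benjamini-Hochberg adjustment over the 4 ratios computed). Such a ratio does not depend on how libraries are scaled. Every Arid1a cKO library already lay above every control in Pthlh and below every control in Pth1r, which fixed this separation in advance. The test of the ratio therefore adds no support beyond the values of the genes themselves.

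Of 20 tested genes further along the PTHrP pathway, 0 rose and 2 fell by edgeR, against 1.5% higher and 2.46% lower among all genes, with a median log2 fold change of -0.042. The list holds G proteins, adenylyl cyclases, protein kinase A subunits, arrestins, salt-inducible kinases and transcription regulators downstream of them. The 2 genes that fell were Adcy9, an adenylyl cyclase that makes cyclic AMP (log2 fold change -0.64, SE 0.0866, edgeR adjusted p = 0.0142), and Creb1, a transcription factor activated by protein kinase A (-0.37, SE 0.0781, edgeR adjusted p = 0.046). The Adcy9 call was lost without control replicate 1 or 3, and the Creb1 call without any 1 of the 6 libraries (edgeR adjusted p of up to 0.128). Prkacb, a catalytic subunit of protein kinase A (log2 fold change -0.18, edgeR adjusted p = 0.152), and the arrestin gene Arrb2 (0.33, 0.173) did not pass. Of 13 tested genes that respond to cyclic AMP or to PTH1R, 0 were called in either direction by edgeR, 3 had an unadjusted p under 0.05, against 22% of all genes, and DESeq2 called 1 higher. Their median log2 fold change was 0.20. The 2 with the smallest p were Tnfrsf11b, which encodes osteoprotegerin, the decoy receptor for RANK ligand (log2 fold change 0.73, edgeR adjusted p = 0.189), and the phosphodiesterase gene Pde4b (0.37, 0.193). The third was lower in Arid1a cKO: Crem, a cyclic AMP-responsive transcription factor gene named after its value was seen (-0.26, edgeR adjusted p = 0.202), whose groups did not overlap.

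Postn (chromosome 3, 54361109 to 54391037, plus strand) had 570, 332 and 421 CPM in Arid1a cKO replicates 1 to 3, against 236, 338 and 322 CPM in control replicates 1 to 3. Arid1a cKO replicate 2 lay just below control replicate 2, so the groups overlapped. The means were 441 ± 120.3 CPM in Arid1a cKO and 299 ± 54.7 CPM in control (SD, n = 3 each), a 1.48-fold higher mean that did not pass (log2 fold change 0.56, SE 0.222, edgeR adjusted p = 0.207). DESeq2 called it (adjusted p = 0.0386). The log2 fold change was 0.33 without Arid1a cKO replicate 1, the highest library, and 0.42 without control replicate 1, the lowest.

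Spon1 (chromosome 7, 113765998 to 114043370, plus strand) showed the largest fold difference between means of the 7 genes. It had 283, 169 and 240 CPM in Arid1a cKO replicates 1 to 3, against 79.3, 152 and 158 CPM in control replicates 1 to 3. The groups did not overlap, but Arid1a cKO replicate 2 lay close to controls 2 and 3 while control replicate 1 was far below the rest. Means of 231 ± 57.5 CPM in Arid1a cKO and 129.6 ± 43.7 CPM in control (SD, n = 3 each) differed 1.78-fold, short of the threshold (log2 fold change 0.83, SE 0.315, edgeR adjusted p = 0.202). Without control replicate 1 the log2 fold change was 0.58.

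Tnmd (chromosome X, 133850980 to 133865577, plus strand) had 5.45, 4.49 and 5.80 CPM in Arid1a cKO replicates 1 to 3, against 2.33, 3.70 and 4.38 CPM in control replicates 1 to 3. The groups were separate, by the small gap between Arid1a cKO replicate 2 and control replicate 3. The log2 fold change was 0.60 (SE 0.24, edgeR adjusted p = 0.199), from means of 5.25 ± 0.679 CPM in Arid1a cKO and 3.47 ± 1.05 CPM in control (SD, n = 3 each). It was 0.38 without control replicate 1, and 0.26 by limma on the deposited normalized table with a pseudocount of 5 before the log2, which shrinks the difference of a gene at this low level. With log2 CPM of Xist as a covariate, since Tnmd is on the X chromosome, it was 0.63 (edgeR adjusted p = 0.147).

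Postn, Spon1 and Tnmd shared much of their profile over the 6 libraries. Likeness was measured as the root mean square difference of log2 CPM after each gene was centred and scaled to unit SD, which is 0 for the same shape and 1.83 for mirror images. It was 0.231 for Spon1 and Tnmd, 0.268 for Postn and Spon1 and 0.489 for Postn and Tnmd, and the closest other pair of marker genes, Pth1r and Scx, was at 0.93. All 3 genes were lowest in control replicate 1. Arid1a cKO replicate 1 was the highest library in Postn and Spon1, and Arid1a cKO replicate 3 in Tnmd. Among 12811 candidate genes, those nearest to Postn were Igfbp4, which encodes an insulin-like growth factor binding protein (0.0705), and Mgp, which encodes an inhibitor of mineralization (0.0755). Nearest to Spon1 were the secreted factor gene Ndnf (0.0842) and the mast cell tryptase gene Tpsb2 (0.0904), and nearest to Tnmd were the ephrin receptor gene Ephb2 (0.0498) and Cdk5r1 (0.0911), which encodes an activator of the kinase Cdk5. None of these 6 genes was called (edgeR adjusted p of 0.154 to 0.237). For Pth1r the nearest was Rrm2b, a ribonucleotide reductase subunit gene (0.0419), which was lower in Arid1a cKO (log2 fold change -0.40, edgeR adjusted p = 0.0417), followed by Klhl15 (0.0749). Srd5a3 and Commd3 were nearest to Pthlh (0.124 and 0.126), Entr1 and Sptan1 to Scx (0.16 and 0.177), and Hemk1 and Gon7 to Mkx (0.138 and 0.204). This likeness describes 6 libraries and was not tested.

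The transcription factors Scx and Mkx differed less than the spread between libraries. Scx (chromosome 15, 76457452 to 76459458, plus strand) had 1.02, 1.38 and 1.25 CPM in Arid1a cKO replicates 1 to 3, against 1.08, 1.49 and 1.90 CPM in control replicates 1 to 3. These values rest on 38 to 51 counts per library in Arid1a cKO and 34 to 52 in control. The groups overlapped (log2 fold change -0.29, SE 0.272, edgeR adjusted p = 0.581), and the 95% interval of the difference ran from -0.92 to 0.34. Over 20 alternative settings the log2 fold change lay between -0.47 and -0.049. Scx lies within Bop1, a ribosome biogenesis gene on the opposite strand, and shares 0 exon bases with it. Whether counting used strand is not stated in the sources at hand, and Bop1 had 27.1 ± 1.53 CPM in Arid1a cKO and 25.8 ± 0.229 CPM in control (SD, n = 3 each).

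Mkx (chromosome 18, 6934518 to 7004780, minus strand) had 42.4, 51.5 and 46.4 CPM in Arid1a cKO replicates 1 to 3, against 39.8, 63.6 and 40.2 CPM in control replicates 1 to 3. The Arid1a cKO libraries lay between the lowest and the highest control. Means were 46.8 ± 4.55 CPM in Arid1a cKO and 47.9 ± 13.6 CPM in control (SD, n = 3 each), with a log2 fold change of -0.033 (SE 0.194, 95% interval -0.50 to 0.43, edgeR adjusted p = 0.945). Control replicate 2, the highest in Mkx, was also the library with the most skeletal muscle markers. Over the whole marker list the sums were 7.12 to 8.93 CPM in Arid1a cKO and 4.51 to 47.1 CPM in control. Of 7 tested muscle markers, 0 were called by edgeR, against 3.96% of all genes, and 3 had an unadjusted p under 0.05, against 22%. Without control replicate 2 the log2 fold change of Mkx was 0.24 (edgeR adjusted p = 0.253), and with the muscle markers as a covariate it was 0.20 (0.545). Mkx shares 201 exon bases, 4.91% of its exon sequence, with AC148004.2 on the same strand, which was not among the genes tested.

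**Figure D2:**
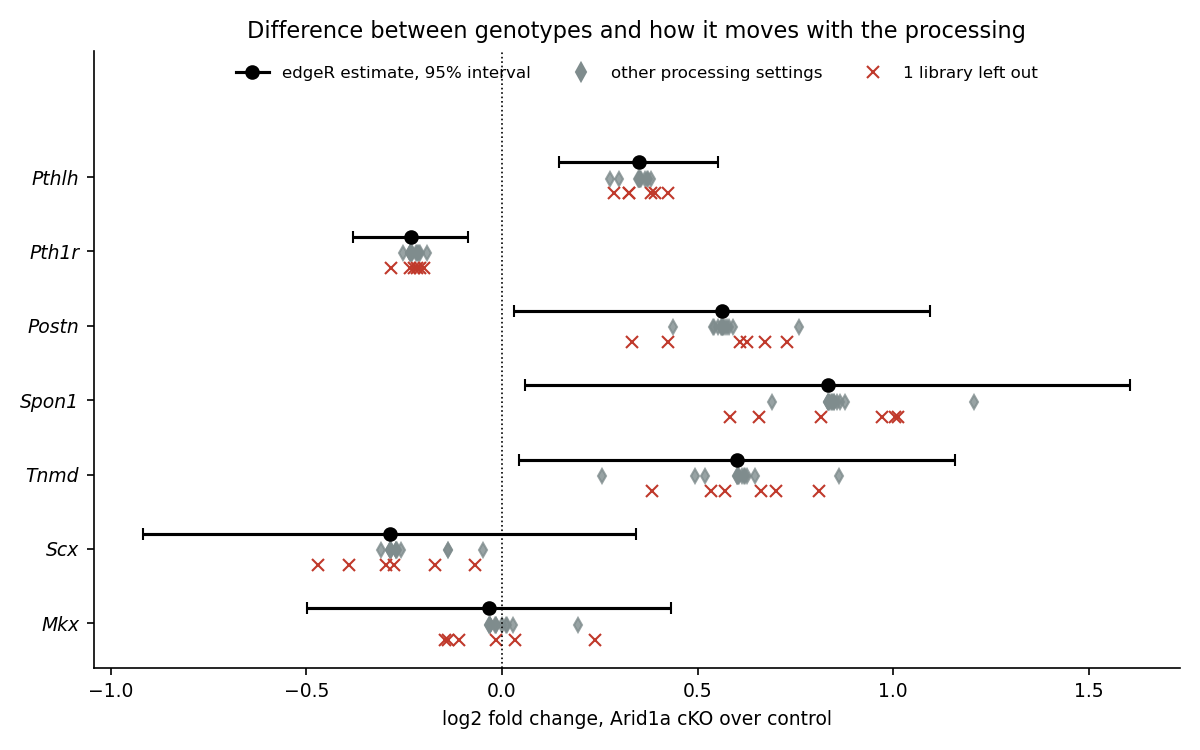
Log2 fold change of each marker gene (horizontal axis, Arid1a cKO over control) with its 95% interval from edgeR (black), under the other processing settings (grey) and with each library left out in turn (red crosses). The estimates of Mkx lie on both sides of 0, and those of the other 6 genes stay on one side, with Spon1 ranging from 0.58 to 1.21.

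Of 9 tested relatives of the marker genes, 2 rose and 1 fell by edgeR, against 1.5% higher and 2.46% lower among all genes. Tgfbi, which encodes a matrix protein with the same fasciclin domains as periostin, had 570, 735 and 576 CPM in Arid1a cKO replicates 1 to 3, against 1152, 1082 and 968 CPM in control replicates 1 to 3 (log2 fold change -0.77, SE 0.125, edgeR adjusted p = 0.0211). It fell while the mean of Postn was higher. The ratio of Postn to Tgfbi within a library, per length, was 0.433, 0.196 and 0.317 in Arid1a cKO replicates 1 to 3 and 0.0889, 0.136 and 0.144 in control replicates 1 to 3. Cnmd, which encodes chondromodulin, the relative of tenomodulin found in cartilage, had 12.998, 4.71 and 6.37 CPM in Arid1a cKO replicates 1 to 3, against 33.7, 28.1 and 24.9 CPM in control replicates 1 to 3. Its groups were far apart, and it missed the threshold (log2 fold change -1.84, SE 0.377, edgeR adjusted p = 0.0559). The ratio of Tnmd to Cnmd was 0.572, 1.30 and 1.24 in Arid1a cKO replicates 1 to 3 and 0.0939, 0.180 and 0.239 in control replicates 1 to 3. The groups were separate in both ratios, by 1.32 and 2.61 on the log2 scale (two-sided exact permutation test, p = 0.1 for each and 0.133 after adjustment). For Tnmd over Cnmd this was fixed in advance, since both genes were separate, in opposite directions, so the test adds no support. For Postn over Tgfbi, the groups were already separate in Tgfbi.

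Spon2, the other gene of the spondin family tested, rose in Arid1a cKO, with 6.22, 6.17 and 4.42 CPM in Arid1a cKO replicates 1 to 3, against 2.74, 2.75 and 2.30 CPM in control replicates 1 to 3 (log2 fold change 1.11, SE 0.187, edgeR adjusted p = 0.0235). The mean of Spon1 was higher too, and the ratio of Spon1 to Spon2 did not separate the groups (difference -0.23 on the log2 scale, two-sided exact permutation test, p = 0.5). The call of Tgfbi was lost without Arid1a cKO replicate 3 or any 1 of the controls (edgeR adjusted p of up to 0.0822), and that of Spon2 without Arid1a cKO replicate 2 or any 1 of the controls (up to 0.0833). Among the Iroquois homeobox genes, the relatives of Mkx, Irx6 was higher in Arid1a cKO at a low level (log2 fold change 1.55, SE 0.311, edgeR adjusted p = 0.0389, lost without 5 of the 6 libraries in turn) and Irx1, Irx2, Irx3 and Irx5 were not called (log2 fold changes of -1.28, 0.42, -0.09 and -0.28, edgeR adjusted p of 0.208 to 0.755). Tcf15, the relative of Scx, was listed at 0.292 ± 0.12 CPM in Arid1a cKO and 0.298 ± 0.132 CPM in control (SD, n = 3 each) and was not called. The hormone receptor gene Pth2r did not pass the filter on low counts.

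**Figure D3:**
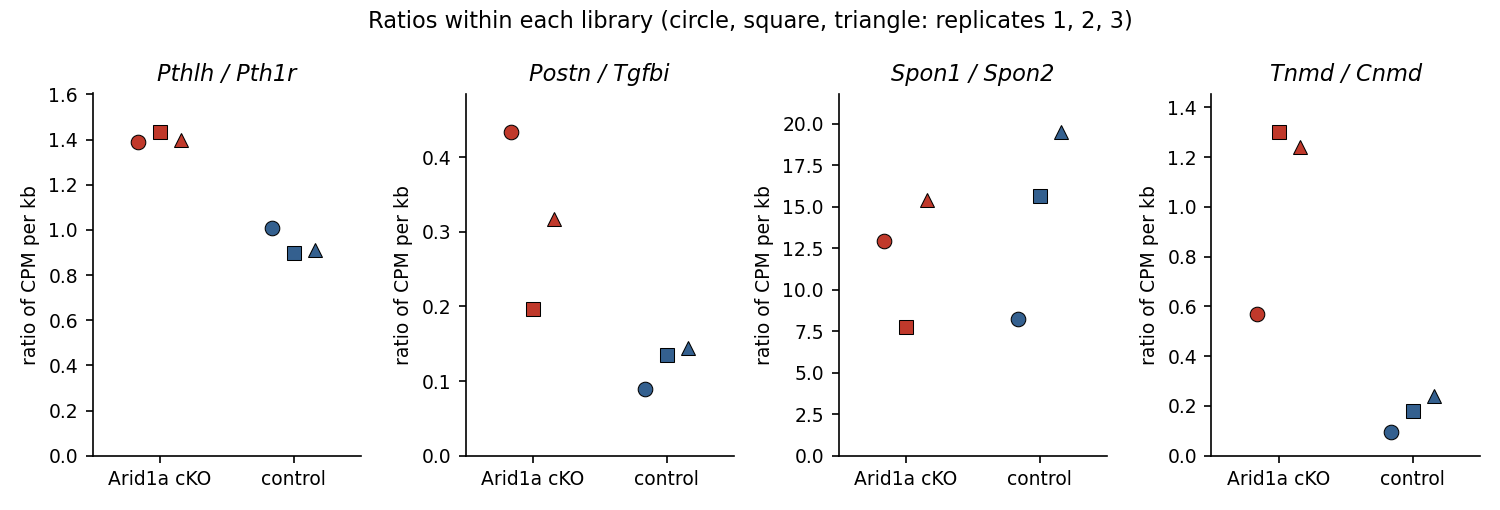
Ratio of CPM per kb within each library for ligand over receptor (Pthlh over Pth1r) and for 3 marker genes over their relatives, with each point a library (red for Arid1a cKO, blue for control; circle, square and triangle for replicates 1, 2 and 3); every vertical axis starts at 0. The groups are separate in all but the ratio of Spon1 to Spon2. For Pthlh over Pth1r and Tnmd over Cnmd, this follows from the separate levels of the genes themselves.

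Other genes of tendon and ligament moved in both directions. Of 25 tested, 1 rose and 5 fell by edgeR, against 1.5% higher and 2.46% lower among all genes, with a median log2 fold change of -0.12. The genes that fell were the small leucine-rich proteoglycan genes Fmod, Lum and Kera and the collagen genes Col5a1 and Col12a1. Lum, which encodes lumican, a regulator of collagen fibrils, had 829, 1141 and 998 CPM in Arid1a cKO replicates 1 to 3, against 2334, 1782 and 1801 CPM in control replicates 1 to 3, about 1.99-fold lower (log2 fold change -0.995, SE 0.155, edgeR adjusted p = 0.0194). Kera, which encodes keratocan, fell at a low level (log2 fold change -2.22, SE 0.436, edgeR adjusted p = 0.0368), with 0.48 ± 0.236 CPM in Arid1a cKO and 2.20 ± 0.897 CPM in control (SD, n = 3 each). Col5a1, for a collagen that starts fibril assembly, had a log2 fold change of -0.52 (SE 0.0728, edgeR adjusted p = 0.0148). The gene that rose was Egr2, a zinc finger transcription factor active in tendon cells (log2 fold change 1.02, SE 0.218, edgeR adjusted p = 0.0472). Tnc, for the matrix protein tenascin C (log2 fold change -0.69, edgeR adjusted p = 0.0527), and Dcn, for decorin (-0.46, 0.103), did not pass. Of these calls, only that of Fmod held without each library in turn, and 1 to 4 of the genes of the list were called lower without single libraries.

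Of 20 other matrix genes of the periodontal ligament, 1 rose and 3 fell by edgeR, against 1.5% higher and 2.46% lower among all genes, with a median log2 fold change of 0.031. Those that fell were Fbn2, for a fibrillin of elastic microfibrils (log2 fold change -0.59, edgeR adjusted p = 0.0294), the proteoglycan gene Aspn, and Igfbp5, for an insulin-like growth factor binding protein (-0.49, 0.0407). Mfap4, for another protein of elastic fibres, rose (0.32, 0.0493), and its exons share 89 bases with Mapk7 on the opposite strand. Fbn1 (-0.50, edgeR adjusted p = 0.0661) and Vcan, for the proteoglycan versican (-0.79, 0.0678), did not pass. Each of these calls was lost without several libraries taken 1 at a time, and those of Igfbp5 and Mfap4 without any 1 of the 6. Of 11 genes whose proteins bind, process or induce periostin, 0 rose and 1 fell by edgeR, against the same shares of all genes, with a median log2 fold change of -0.12. That gene was Bmp1, for a protease that processes collagens (log2 fold change -0.53, edgeR adjusted p = 0.035), and its call was lost without 5 of the 6 libraries in turn. Fn1, for fibronectin, did not pass (-0.42, edgeR adjusted p = 0.0704). Tnc and Col1a1 are in both the tendon and the periostin list, and Lox in both the ligament matrix and the periostin list.

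**Figure D4:**
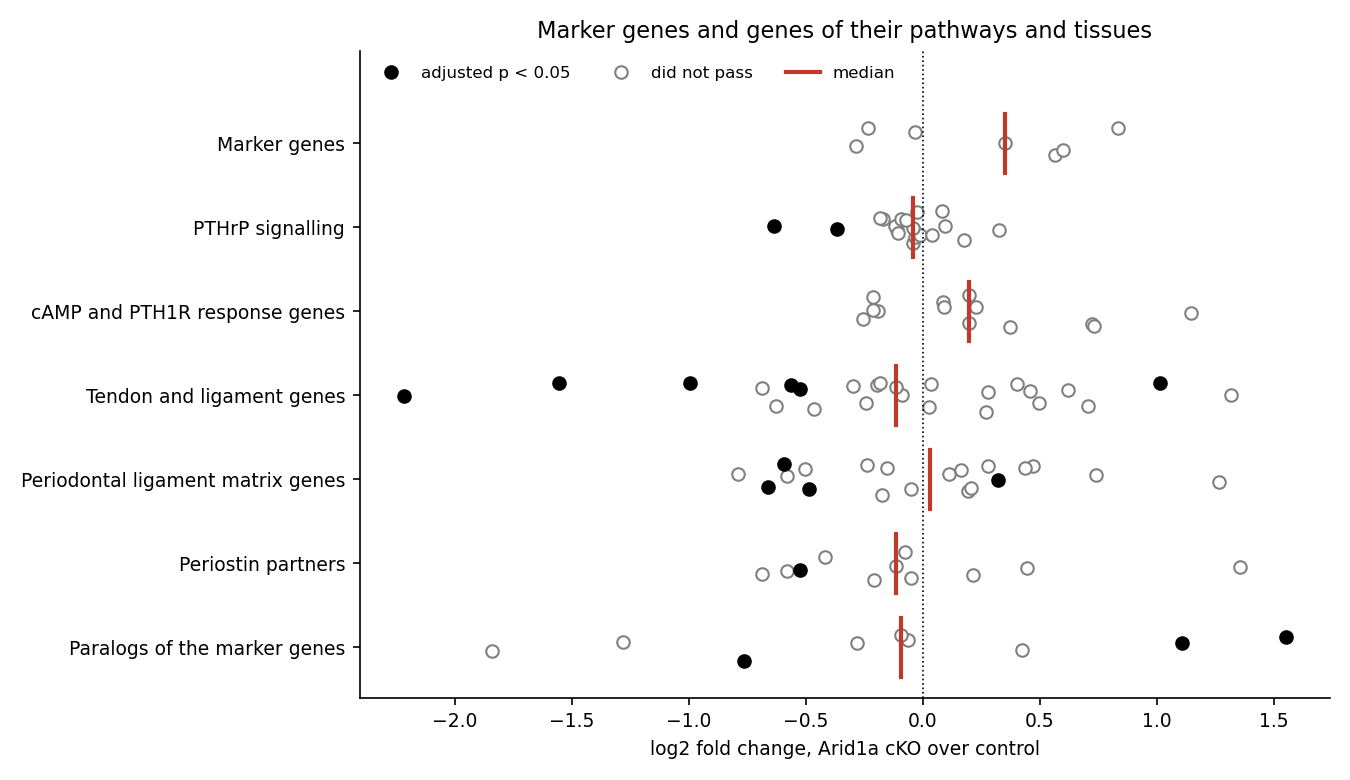
Log2 fold change (horizontal axis, Arid1a cKO over control) of the 7 marker genes and of the genes tested in each list, with genes called by edgeR in black, others open, and the median of each list as a red line. No marker gene is called, while the tendon and ligament list holds 5 called genes below 0 and 1 above.

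Markers of other cell types gave these values beside the results above. Over all genes tested, edgeR called 1.5% higher and 2.46% lower, and 22% had an unadjusted p under 0.05. The groups did not overlap in 29.1% of all genes. The 14 dental epithelium markers summed to 1549 to 3254 CPM in Arid1a cKO and 1325 to 4779 CPM in control, and 1 of 14, Epcam, was called, higher in Arid1a cKO. The highest sum, in control replicate 3, held 1914 CPM of the enamel gene Amelx. Of the 14 markers, 10 had a log2 fold change above 0, with a list median of 0.19. With the mean of the epithelium markers as a covariate, Pthlh had a log2 fold change of 0.38 (edgeR adjusted p = 0.0501) and Spon1 one of 0.69 (0.184). The 8 osteoblast and osteocyte markers summed to 1342 to 1694 CPM in Arid1a cKO and 1125 to 3107 CPM in control, with the highest value in control replicate 1, the library in which Postn, Spon1 and Tnmd were lowest. Of 7 tested, 1 was called: Sost, a marker of osteocytes, was higher in Arid1a cKO (log2 fold change 1.54, edgeR adjusted p = 0.0156), whereas Bglap, which makes up much of the sum, did not pass (-0.57, 0.453), and the median of the list was -0.18. The part of osteoblast markers in the values of the marker genes was not tested. The 6 chondrocyte markers in the table summed to 161 to 208 CPM in Arid1a cKO and 248 to 300.1 CPM in control, with 0 of 6 called by edgeR and 5 with an unadjusted p under 0.05. That sum is mostly Hapln1 (log2 fold change -0.65, edgeR adjusted p = 0.112). Of the 6 genes 3 had a lower mean in Arid1a cKO (Hapln1, Acan and Col9a1) and 3 a higher one, among them Col2a1 (0.60, edgeR adjusted p = 0.0884), and the median log2 fold change was 0.050. Their part in the values of Cnmd was not tested. Of 8 markers of incisor mesenchyme and odontoblasts, 2 fell, with a median log2 fold change of -0.35 and groups that did not overlap in 5. They were Gli1, the gene whose promoter activity marks the recombined lineage (log2 fold change -0.52, edgeR adjusted p = 0.0162), and Msx2, a homeobox gene (-0.49, 0.0194). Only the Arid1a cKO libraries carry Gli1-CreER, so an effect of that allele on Gli1 cannot be told apart from loss of Arid1a. This list summed to 4206 to 5311 CPM in Arid1a cKO and 2314 to 5305 CPM in control, with the lowest value in control replicate 2. That sum is mostly Dspp, which had 1260 CPM in control replicate 2 against 4122 and 4332 CPM in control replicates 1 and 3. The 5 leukocyte markers summed to 302 to 494 CPM in Arid1a cKO and 239.8 to 347.7 CPM in control, with a log2 fold change above 0 in 5 of 5 (median 0.32), 0 called by edgeR and 1 with an unadjusted p under 0.05. Of 6 endothelial and 3 osteoclast markers tested, 0 were called by edgeR, with 1 of each list at an unadjusted p under 0.05. The part of these 4 lists in the values of the marker genes was not tested.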

How the data were processed

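Total RNA of 6 libraries was sequenced as single-end reads on a NextSeq500, per the labels' protocols, and the tools named are STAR 2.6.1d and Partek, with mm10 as genome build, per the submitters' processing notes. Sources used here do not state the annotation release, library kit or strand setting. The authors deposited estimated counts per gene (25703 genes, each with a total of at least 10), which were rounded here. A table of normalized signal for 21456 genes was deposited as well. Its values equal the count plus 1 divided by 1 factor per library, to within 0.00067%. Its method is not named, but the upper quartile of its values lay between 35.97 and 35.98 in all libraries, as scaling to the upper quartile would give. No column of another sample was present.

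Genes were filtered with filterByExpr (minimum count 10), scaled by TMM and tested with edgeR 4.0.16 (glmQLFit with robust estimation, glmQLFTest, two-sided, no covariates) in R 4.3.3, with limma 3.58.1 and DESeq2 1.42.0 as alternatives and matplotlib 3.10.9 for plots. Benjamini-Hochberg adjustment ran over all 19613 genes. SE is the absolute log2 fold change over the square root of F. The count test was tested on simulated data. Exon lengths and overlaps come from GENCODE release M21 (GRCm38), and gene ends are the deposited stop minus 1. Genes named are the 7 markers, Arid1a, their relatives, up to 6 called genes and the 2 next by p of each list, and the 2 genes of most similar pattern. Fmod, Col12a1 and Aspn are given by name only. Genes outside this rule are named for an overlap or a marker value. The TATA motif was added after seeing the windows. The marker genes and lists were chosen with earlier results of these data known. At 27300932 to 37908478 counts a library, replicate spread limits precision for all but low genes such as Scx. Every pair of libraries differed beyond sampling noise (chi-square per degree of freedom of at least 29.3). Replicate numbers follow accession order within a group and only name libraries.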

Additional observations from a re-analysis of the deposited data

How the results depend on the processing

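The alternatives were RLE, upper quartile and library size scaling, DESeq2, limma-voom, limma on the authors' normalized table (pseudocounts 1 and 5), no filter, 1 CPM in all libraries, counts not rounded, robust estimation off, covariates for dental epithelium, skeletal muscle and Xist, and each library left out in turn. Of the 7 marker genes, 1 was called with library size scaling alone and 2 with DESeq2, all higher in Arid1a cKO, and 0 under every other alternative. Over all genes, DESeq2 called 1935, the Xist covariate 1182, and leaving out single libraries 160 to 532, against 777. All marker genes but Mkx kept their direction in the 20 alternatives. Mkx turned to 0.000626 with limma-voom, 0.0138 and 0.0102 with limma on the authors' table (pseudocounts 1 and 5), 0.0273 with the epithelium and 0.195 with the muscle covariate, and ranged from -0.146 to 0.238 with single libraries left out; the cause was not tested. Over the 20 alternatives, lower calls ranged from 1 to 9 in the tendon and ligament list (5 as reported), from 0 to 6 in the ligament matrix list (3), from 0 to 3 among periostin partners (1), from 0 to 2 in the PTHrP list (2) and from 0 to 2 among the relatives (1). Higher calls ranged from 0 to 2 in the tendon, ligament matrix and relatives lists (1, 1 and 2), from 0 to 1 in the periostin and cyclic AMP lists (0 each), and were 0 in the PTHrP list. The low counts of Scx limit what can be said of it. No paired analysis was possible because the labels mention pairs of samples without saying which belong together, and the sample titles of the groups share fewer than 2 numbers.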
